A study of Mus musculus with 12 samples.

Results

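The 36 interferon response genes described here are genes whose transcription is switched on by interferon, together with the factors that switch them on. They were taken as a named list by a rule that uses no measured value. Earlier results of these data were known when the list was chosen. Their chromatin was read from lists of ChIP-seq peaks, the stretches of genome that chromatin immunoprecipitation followed by sequencing finds enriched for a histone mark. For each gene the peaks within 10 kb of either gene end were used, on build mm10, and the value per library is the length in base pairs (bp) that those peaks cover. The 36 members are among 21887 protein-coding genes treated in the same way. They lie at 30 separate loci, because 6 pairs of neighbours share part of their windows: Oasl1 with Oasl2, Oas2 with Oas3, Ifitm1 with Ifitm2, Rsad2 with Cmpk2, Parp9 with Dtx3l, and Ifit2 with Ifit3. Oas2 adds no covered length to that of Oas3 in any library. A further protein-coding gene reaches into the window of 29 members, so a peak there need not belong to the member.

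Both groups are cKit+ bone marrow cells, a population rich in blood stem and progenitor cells, sorted from C57BL/6 mice. The Tg group carries Phf6R274X, a truncated form of the PHD finger protein Phf6, and the WT group is wild type. Each group has 2 libraries for each of 3 marks, H3K27ac, H3K4me1 and H3K4me3, giving 12 libraries in all. The labels name Phf6R274X as a transgene and do not give its promoter, the age or the sex of the mice. They do not say whether replicate libraries came from different mice, so p-values below measure the spread between libraries, which may be technical.

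H3K27ac peaks covered 28.5 and 33.8 Mb in Tg libraries and 45.7 and 36.6 Mb in WT libraries. H3K4me1 peaks covered 70.7 and 117 Mb in Tg libraries and 66.3 and 120 Mb in WT libraries, so the lists of replicate 2 are far longer than those of replicate 1 in both genotypes. H3K4me3 peaks covered 40.9 and 40.0 Mb in Tg libraries and 43.6 and 38.3 Mb in WT libraries. All 4 H3K4me3 lists carry the opposite genotype inside their peak names, so the libraries labelled Tg hold peaks named WT and the other way round. H3K4me3 values are given by label, and every H3K4me3 difference would change sign if the peak names held. The progenitor gene Kit had peaks of every mark in all libraries, whereas Cd34 had no H3K27ac peak in any of the 4 libraries. Read counts are not part of a peak list, and the depth behind each value is unknown.

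Type I interferon binds its receptor, whose kinases Jak1 and Tyk2 activate a complex that holds Stat2 and Irf9. The complex binds the interferon-stimulated response element (ISRE) in target promoters, while interferon gamma acts through a second element, the gamma-activated site (GAS). H3K4me3 marks promoters, H3K4me1 marks enhancers and the flanks of promoters, and H3K27ac marks active promoters and enhancers. In bone marrow, interferon is known to push quiescent blood stem cells into division, and many of its target genes have a basal level without added interferon.

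The promoters of 30 members were matched by symbol in the RefSeq promoters of GRCm38.p6 (mm10), which give 250 bases before and 50 bases from the start of transcription. The other 6 are Oas2, Zbp1, Parp14, Dhx58, Parp9 and Usp18. The ISRE letters, GAAA followed after any 2 bases by GAAA, were searched on both strands. They occurred in promoters of 16 of 30 members (53.3%) and of 3.94% of 17492 protein-coding genes with an entry. The GAS letters TTCNNNGAA occurred in 8 member promoters (26.7%), against 8.92% of all. The Ets-IRF composite letters, GGAA followed after any 2 bases by GAAA, which can overlap an ISRE, occurred in 5 member promoters (16.7%), namely Irf2, Stat2, Ifi44, Trim25 and Dtx3l, against 2.98% of all. A match is a run of letters and says nothing about binding. The 160 bases before the start are shown here for 7 members, in the direction of transcription. Capitals mark the ISRE, which reads TTTC, any 2 bases and TTTC when it lies on the other strand, except in Irf1, where they mark the GAS. Isg15 and Bst2 are shown because they have overlapping copies, Irf1 for its GAS, and Gbp3, Ifit1, Ifit3 and Rsad2 because they recur in the comparisons of genotypes.
Isg15 (chr4:156200819-156200978, minus strand): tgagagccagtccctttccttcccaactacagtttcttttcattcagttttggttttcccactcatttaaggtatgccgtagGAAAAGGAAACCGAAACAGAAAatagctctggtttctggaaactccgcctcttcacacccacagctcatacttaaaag
Bst2 (chr8:71537473-71537632, minus strand): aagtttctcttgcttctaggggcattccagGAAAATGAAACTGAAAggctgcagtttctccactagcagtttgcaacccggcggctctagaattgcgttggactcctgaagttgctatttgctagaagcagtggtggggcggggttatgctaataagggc
Gbp3 (chr3:142559884-142560043, plus strand): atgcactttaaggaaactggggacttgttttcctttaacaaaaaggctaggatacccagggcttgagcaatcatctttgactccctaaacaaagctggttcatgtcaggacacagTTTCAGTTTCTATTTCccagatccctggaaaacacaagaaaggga
Ifit1 (chr19:34640729-34640888, plus strand): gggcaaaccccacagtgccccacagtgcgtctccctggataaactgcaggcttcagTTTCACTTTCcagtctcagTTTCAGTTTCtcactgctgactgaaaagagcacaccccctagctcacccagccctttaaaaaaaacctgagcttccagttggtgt
Ifit3 (chr19:34583369-34583528, plus strand): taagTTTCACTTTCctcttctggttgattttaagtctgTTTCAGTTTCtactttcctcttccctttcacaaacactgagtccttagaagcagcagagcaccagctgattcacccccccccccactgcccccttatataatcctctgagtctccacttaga
Rsad2 (chr12:26456453-26456612, minus strand): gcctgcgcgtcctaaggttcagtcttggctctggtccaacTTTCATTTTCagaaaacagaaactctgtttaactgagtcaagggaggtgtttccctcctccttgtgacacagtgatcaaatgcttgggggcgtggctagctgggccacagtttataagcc
Irf1 (chr11:53769854-53770013, plus strand): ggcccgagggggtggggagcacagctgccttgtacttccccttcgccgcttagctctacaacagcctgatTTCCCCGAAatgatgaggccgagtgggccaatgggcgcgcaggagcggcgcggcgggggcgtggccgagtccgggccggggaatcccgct

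Isg15 has 3 overlapping ISRE copies, which span bases -78 to -57 counted from the start as 0. Bst2 has an overlapping pair at -130 to -115, and Gbp3 has one at -45 to -30 on the other strand. Ifit1 and Ifit3 each have 2 copies that do not overlap, at -104 to -95 and -85 to -76 in Ifit1 and at -156 to -147 and -122 to -113 in Ifit3. Rsad2 has 1 copy at -120 to -111, and the Irf1 GAS lies at -90 to -82.

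Most of these promoters carried active marks in both genotypes. A H3K4me3 peak lay over the promoter in all 4 libraries for 29 of the 30 members (96.7%), against 58.2% of all promoters. For H3K27ac this held for 25 members (83.3%), against 41.4% of all promoters. H3K4me1 lay over the promoter in all 4 libraries for 11 members (36.7%), against 10.6% of all, and in none for 7 members, namely Irf2, Stat2, Cmpk2, Ifih1, Bst2, Dtx3l and Gbp2. Trim30a is among the 11 only through its entries together. One entry had H3K4me1 in WT 1 alone (689 bp). The other had it in Tg 1, Tg 2 and WT 2 (1567, 1368 and 1477 bp). These shares are descriptions of peak lists, and the promoters differ in other ways that were not matched.

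Outside the members, promoters with and without the ISRE letters had H3K27ac about equally often. Of the 673 other genes with the letters, 41.8% had H3K27ac over the promoter in all 4 libraries, and of the 16789 other genes without them 41.3% did. Among the members the counts were 14 of 16 with the letters and 11 of 14 without, where Ifit2, Isg20, Oasl1, Cmpk2, Irf7 and Xaf1 are examples of promoters with H3K27ac and no ISRE match. Members without the letters in this window may hold them elsewhere.

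The exceptions to the common pattern were few. Ifi44, an interferon-induced gene, had H3K4me3 over its promoter in all 4 libraries, with peaks of 233 and 423 bp in Tg libraries and of 605 and 395 bp in WT libraries, and H3K27ac in none. Of all 17492 genes with a promoter entry, 1750 had that combination. Ifitm1, whose protein blocks fusion of viruses with the cell, had no H3K27ac over its promoter in any library, H3K4me1 in all 4, and H3K4me3 in 1 library of each genotype, with 0 and 862 bp in Tg libraries and 3190 and 0 bp in WT libraries. Ifit1 and Ifit3 each lacked a H3K27ac promoter peak in 1 library, Tg 1 for Ifit1 and WT 2 for Ifit3.

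Oasl2, an oligoadenylate synthetase-like gene, had a H3K27ac peak over its promoter in both Tg libraries, of 1199 and 1197 bp, and in neither WT library. It was chosen for the text after its values were seen. Of all promoters, 0.263% had H3K27ac in both Tg libraries and no WT library, and 0.509% in both WT libraries and no Tg library, with Oasl2 the only member of either kind. No member was of either kind for H3K4me1 (0.595% of all promoters with Tg only, 1.48% with WT only) or H3K4me3 (0.0686% and 0.463%). The WT libraries were not empty there. Their nearest H3K27ac peaks began 0.110 kb (WT 1) and 0.073 kb (WT 2) downstream of the start, just past the end of the promoter window, and the Tg peaks began 0.129 kb (Tg 1) and 0.094 kb (Tg 2) upstream of it. The difference is therefore one of where peaks begin at a promoter that both genotypes mark. Over the whole window Oasl2 had 5455 and 4188 bp of H3K27ac in Tg libraries and 5932 and 5432 bp in WT libraries.

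**Figure D1:**
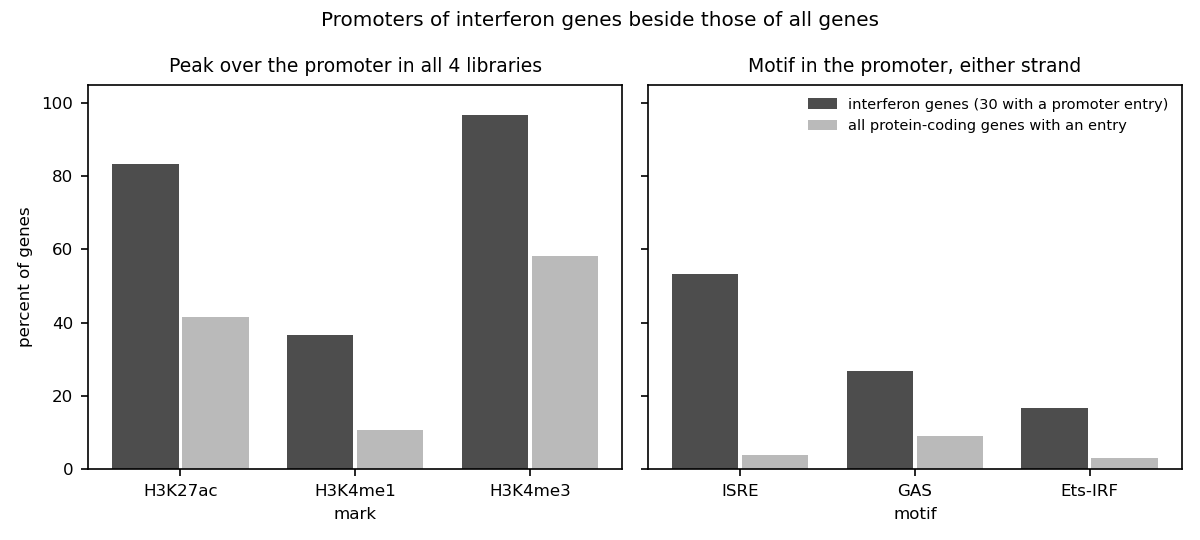
Bars give the percentage of promoters, from 250 bases before to 50 bases after the start, with a peak in all 4 libraries of a mark (left) and with a motif on either strand (right), for the 30 interferon genes matched (dark) and all 17492 protein-coding genes matched (light). The dark bar is the higher of each pair, from 96.7% against 58.2% for H3K4me3 to 16.7% against 2.98% for the Ets-IRF letters.

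The peaks over member promoters were set beside those over all marked promoters by width and by rank within their list. In the H3K4me3 lists their median width was 1929 and 1836 bp in Tg libraries and 2051 and 1772 bp in WT libraries. The median over all marked promoters was 2060 and 1987 bp in Tg libraries and 2079 and 1913 bp in WT libraries. By the authors' q-value, the median member peak stood at percentiles 75.1 and 77.6 of the Tg lists and 78.6 and 78.8 of the WT lists, against 83.8 and 84.1 (Tg) and 85.0 and 84.3 (WT) for all marked promoters. For H3K27ac the members stood at percentiles 69.8 and 79.1 in Tg lists and 84.6 and 72.4 in WT lists, against 83.7 and 86.7 (Tg) and 87.0 and 83.2 (WT) for all marked promoters. So the median member peak ranked below that of all marked promoters in every H3K4me3 and H3K27ac list. In the H3K4me1 lists it ranked above, at percentiles 62.0 and 63.5 in Tg lists and 76.3 and 80.8 in WT lists, against 56.9 and 63.1 (Tg) and 61.4 and 68.2 (WT) for all marked promoters. The widest H3K4me3 promoter peaks among members were those of Irf2, at 4378 and 4652 bp in Tg libraries and 4724 and 4586 bp in WT libraries.

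Across the full windows, the members were covered more than the average gene in every library. Of the 1114267 bp in the merged windows of the members, H3K27ac peaks covered 7.64% and 9.12% in Tg libraries and 11.4% and 9.03% in WT libraries, against 3.26% and 3.88% (Tg) and 4.83% and 4.11% (WT) of the windows of all genes. H3K4me1 peaks covered 13.0% and 20.9% in Tg libraries and 12.8% and 20.7% in WT libraries, against 5.98% and 10.2% (Tg) and 6.01% and 10.6% (WT) for all genes. H3K4me3 peaks covered 10.5% and 10.3% in Tg libraries and 10.9% and 9.74% in WT libraries, against 5.74% and 5.71% (Tg) and 6.09% and 5.52% (WT) for all genes. The median member had 1935 and 2671 bp of H3K27ac in Tg libraries and 3369 and 2577 bp in WT libraries. In all 4 libraries 34 of the 36 members had H3K27ac, and the remaining members, Ifi44 and Ifitm1, had none in any.

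The members differed widely among themselves. Ifitm3, a relative of Ifitm1, had the most H3K27ac, with 9598 and 10019 bp in Tg libraries and 14008 and 12742 bp in WT libraries. Irf2, a factor that competes with Irf1 for the same sites, came next with 8007 and 9056 bp in Tg libraries and 12432 and 10162 bp in WT libraries. For H3K4me1, Irf2 and Irf1 had the most in Tg libraries, where Irf2 had 12394 and 18566 bp and Irf1 12499 and 17127 bp, and Irf2 had the most in WT libraries, with 13084 and 19019 bp. Ifi44 was at the bottom with 300 and 0 bp in Tg libraries and none in WT libraries. For H3K4me3, Ifitm3 had 10372 and 7985 bp in Tg libraries and 8402 and 8022 bp in WT libraries, and Ifi35 had 8520 and 9109 bp in Tg libraries and 10156 and 8545 bp in WT libraries. The windows of Ifitm3 and Ifi35 also hold Ifitm6 and the trio Rpl27, Vat1 and Rnd2. Irf1 has no other protein-coding gene in its window.

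**Figure D2:**
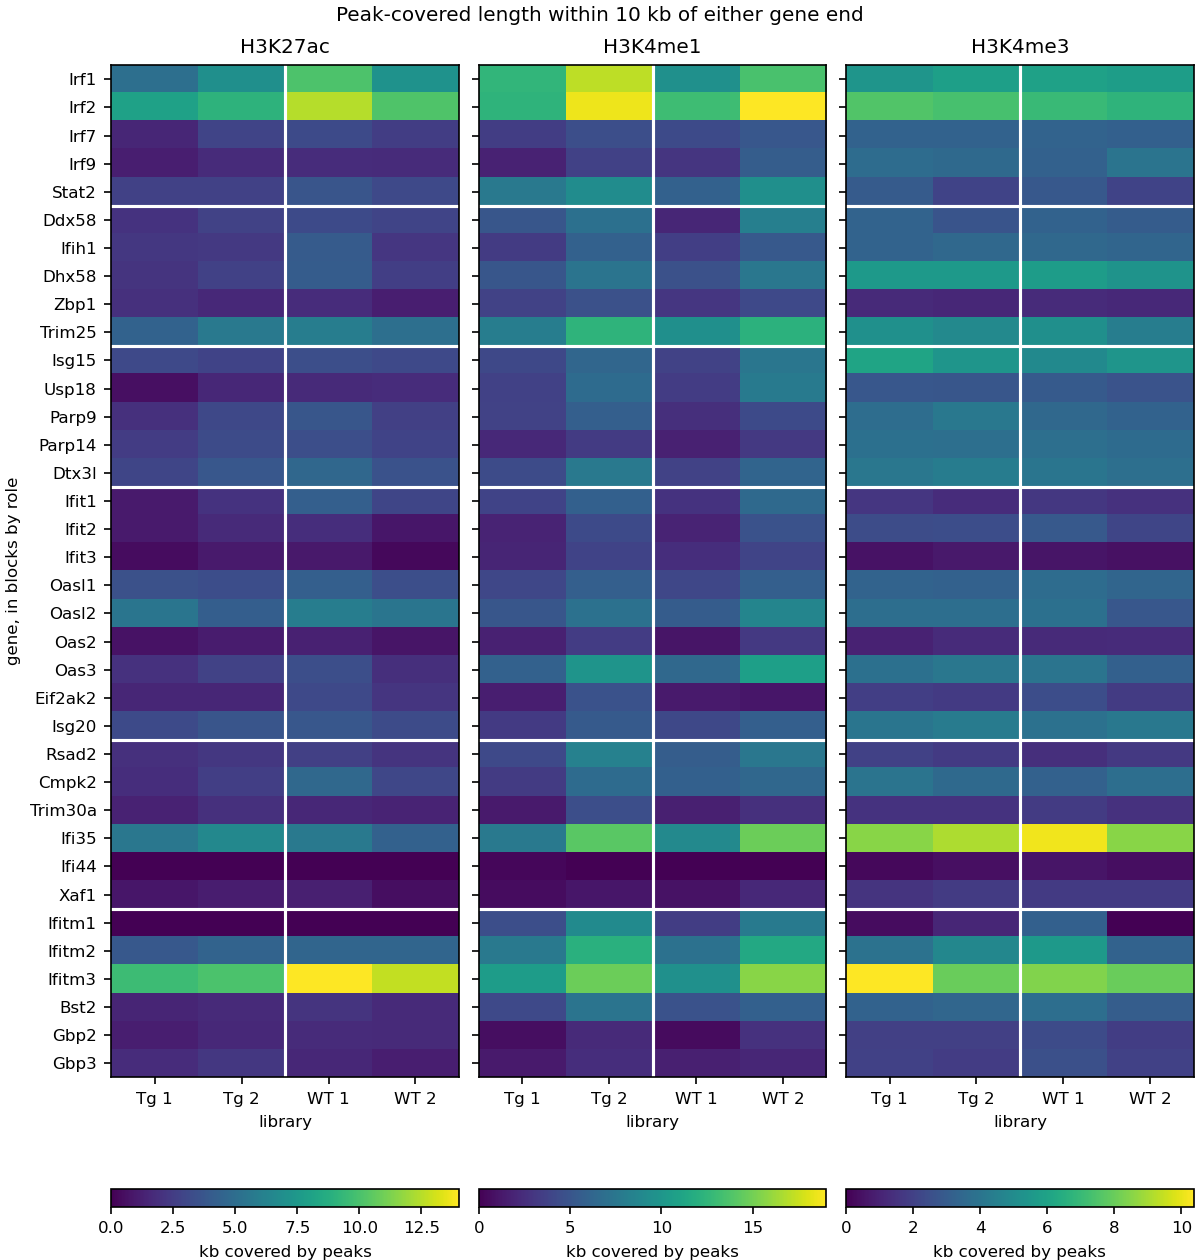
Colour gives the length in kb that peaks cover within 10 kb of either end of each of the 36 genes (rows, in blocks by role), in Tg 1, Tg 2, WT 1 and WT 2 (columns), with a colour scale of its own for each mark. Irf1, Irf2, Ifi35 and Ifitm3 stand out in both genotypes, Ifi44 is near 0 for every mark, and H3K4me1 is longer in replicate 2 of both genotypes.

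The series asks how chromatin differs between Tg and WT cells, and for this each mark was fitted over all genes with a peak in at least 2 of 4 libraries. Covered lengths were put on the scale log2(bp + 500) and quantile normalized, and Tg minus WT was estimated in limma with Benjamini-Hochberg adjustment over all genes tested and a threshold of 0.05. Adding 500 bp understates the change of genes with short coverage. All differences below are on that log2 scale, with their standard error (SE), and n = 2 libraries per genotype and mark.

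No member passed the threshold in any mark. For H3K27ac, 34 members were tested, and 0 were called higher and 0 lower, where 0.115% and 0.161% of 13079 genes were called higher and lower in Tg. The median difference of the members was 0.04 and that of all genes tested was 0.03. For H3K4me1, 35 members were tested and 0 were called, as for all 15833 genes (0% in either direction), and the medians were 0.07 for the members and 0.00 for all genes. For H3K4me3, 36 members were tested and 0 were called, as for all 15800 genes (0% in either direction), and the medians were 0.01 for the members and 0.00 for all genes. At an unadjusted p under 0.05 in limma stood 3 members for H3K27ac, 0 for H3K4me1 and 1 for H3K4me3. These were 8.82%, 0% and 2.78% of the members tested, against 12.6%, 7.97% and 4.82% of all genes tested.

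How much the data could show differed by mark. The 95% interval of the difference lay within 1 log2 unit of 0 for 31 of 34 members in H3K27ac, 30 of 35 in H3K4me1 and 35 of 36 in H3K4me3. The median width of that interval on either side of the estimate was 0.40 for H3K27ac, 0.55 for H3K4me1 and 0.24 for H3K4me3. Smaller differences between the genotypes are not excluded by these widths.

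On the covered lengths before normalization, WT libraries were ahead for H3K27ac. Both Tg libraries lay below both WT libraries for 13 of the 34 members, and for 45.2% of all genes tested. They lay above both for 1 member, Gbp3, and for 5.51% of all genes. For H3K4me1 the Tg libraries lay above both WT libraries for 1 member, Eif2ak2 (2.6% of all genes), and below them for 0 members (6.59% of all genes). For H3K4me3 the libraries labelled Tg lay above for 5 members, Irf2, Rsad2, Parp9, Parp14 and Dtx3l (11.7% of all genes), and below for Oasl1 and Gbp3 (18.8% of all genes). Parp9 and Dtx3l share a window.

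**Figure D3:**
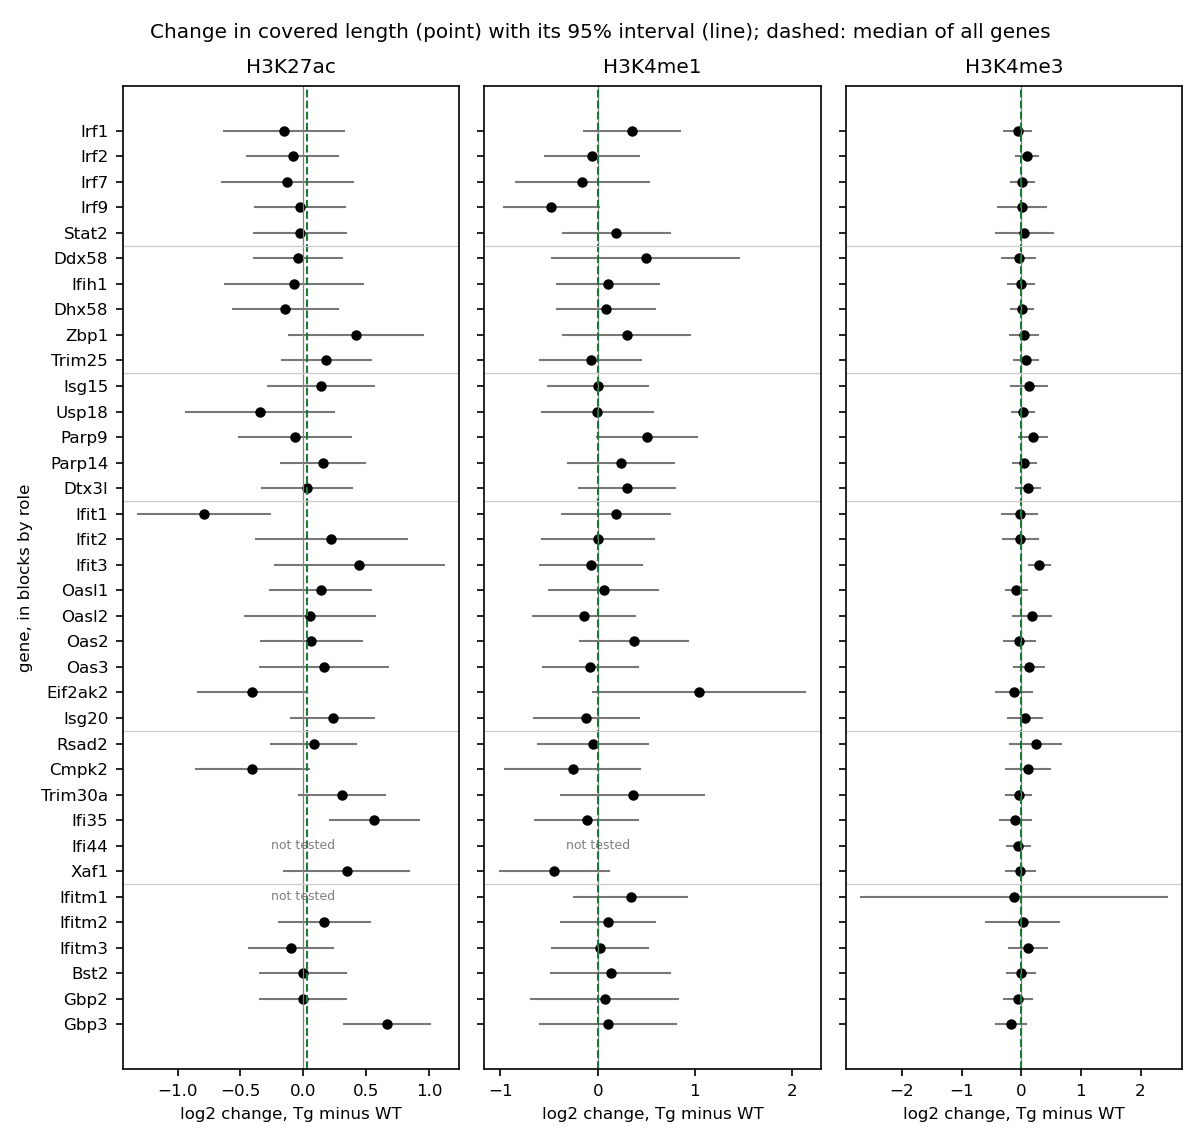
Points give the difference in normalized covered length, Tg minus WT in log2 units, for each of the 36 genes in blocks by role, with its 95% interval from limma as a line and the median of all genes tested as a dashed line. Most intervals include 0, Gbp3 and Ifi35 lie above it and Ifit1 below it for H3K27ac, Ifit3 lies above it for H3K4me3, and no gene passed the adjusted threshold.

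The transcription factors of the pathway had estimates below 0 for H3K27ac in 5 of 5, with a median of -0.08, none of them past the threshold. Irf1, induced by interferon gamma, had 5132 and 6974 bp in Tg libraries and 10109 and 7116 bp in WT libraries, a difference of -0.16 ± 0.19 (adjusted p = 0.778). Both Tg libraries of Irf1 were below both WT libraries, although Tg 2 and WT 2 were close. Irf7, the factor that drives transcription of type I interferon genes, had 1489 and 2853 bp in Tg libraries and 3156 and 2531 bp in WT libraries, with a difference of -0.13 ± 0.21 (adjusted p = 0.842), and its groups overlapped. Irf9 had 1163 and 1711 bp in Tg libraries and 1776 and 1718 bp in WT libraries (-0.02 ± 0.14, adjusted p = 0.957). Its partner Stat2 had 2687 and 2727 bp in Tg libraries and 3678 and 3107 bp in WT libraries (-0.03 ± 0.15, adjusted p = 0.953). Both Tg libraries of each were below both WT libraries in covered length, and the difference was close to 0 after normalization.

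The same factors showed no common direction for H3K4me1. Irf1 had a difference of 0.35 ± 0.20 (adjusted p = 0.706), with 12499 and 17127 bp in Tg libraries and 9549 and 13536 bp in WT libraries, so Tg was longer than WT of the same replicate number in both. Irf9 had 1799 and 3698 bp in Tg libraries and 2928 and 5601 bp in WT libraries, and its difference of -0.48 ± 0.19 (adjusted p = 0.628) was the lowest of the members in H3K4me1. Irf7 had 3453 and 4547 bp in Tg libraries and 4296 and 5195 bp in WT libraries (-0.16 ± 0.27, adjusted p = 0.914). Stat2 had 7658 and 9286 bp in Tg libraries and 5900 and 9450 bp in WT libraries (0.19 ± 0.22, adjusted p = 0.854). In each of these genes replicate 2 was longer than replicate 1 in both genotypes, as in the lists as a whole.

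H3K4me3 at the factors was close between the groups. Irf7 had 3260 and 3256 bp in libraries labelled Tg and 3313 and 3191 bp in those labelled WT, a difference of 0.01 ± 0.07 (adjusted p = 0.986), with a 95% interval of -0.18 to 0.21. Irf1 had 5423 and 5837 bp in Tg libraries and 5947 and 5775 bp in WT libraries (-0.06 ± 0.08, adjusted p = 0.939). Irf9 had 3670 and 3545 bp in Tg libraries and 3232 and 4006 bp in WT libraries (0.01 ± 0.15, adjusted p = 0.995). Stat2 had 2972 and 2103 bp in Tg libraries and 2837 and 2073 bp in WT libraries (0.05 ± 0.18, adjusted p = 0.977), so its 2 replicates differed more from each other than the genotypes did.

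The sensors of foreign nucleic acid are Ddx58 and Ifih1, which encode the RNA sensors RIG-I and MDA5, Dhx58, which encodes their relative LGP2, Zbp1, a sensor of left-handed nucleic acid, and Trim25, a ubiquitin ligase that acts in the RIG-I pathway. For H3K27ac 2 of 5 had estimates above 0 and 3 below, with a median of -0.05, and 0 of 5 passed in any mark. Ddx58 had 5097 and 7040 bp of H3K4me1 in Tg libraries and 2008 and 8229 bp in WT libraries, so the WT libraries lay on either side of the Tg libraries. Its difference of 0.50 ± 0.38 (adjusted p = 0.765) was 1.14 within replicate 1 and -0.15 within replicate 2. Zbp1 had 1942 and 1613 bp of H3K27ac in Tg libraries and 1779 and 1183 bp in WT libraries, which overlap. For the same mark Ifih1 had 2290 and 2299 bp in Tg libraries and 3996 and 2201 bp in WT libraries, and Dhx58 had 2080 and 2722 bp in Tg libraries and 4058 and 2622 bp in WT libraries. In both genes WT 1 was far above the other 3 libraries. Trim25 had 4421 and 5661 bp in Tg libraries and 5916 and 5121 bp in WT libraries, which overlap. For H3K4me3 the 5 sensors differed by -0.04 to 0.08.

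The genes of protein modification are Isg15, a ubiquitin-like protein that is joined to other proteins, Usp18, the enzyme that removes it, and the ADP-ribosylation genes Parp9, Parp14 and Dtx3l, of which Parp9 and Dtx3l encode partners in 1 complex. Usp18 had 596 and 1554 bp of H3K27ac in Tg libraries and 1678 and 1770 bp in WT libraries (-0.34 ± 0.23, adjusted p = 0.613), with both Tg libraries below both WT libraries. Isg15, whose promoter has the 3 overlapping ISRE copies, had 3091 and 2844 bp of H3K27ac in Tg libraries and 3380 and 3077 bp in WT libraries. Its groups overlapped, since Tg 1 was just above WT 2. For H3K4me3 all 5 genes had estimates above 0, with a median of 0.11, and none passed. Parp9 had 3699 and 4141 bp of H3K4me3 in libraries labelled Tg and 3487 and 3264 bp in those labelled WT, a difference of 0.20 ± 0.09 (adjusted p = 0.916). Parp9 also had 3763 and 5791 bp of H3K4me1 in Tg libraries and 2599 and 4290 bp in WT libraries, a difference of 0.50 ± 0.20 (adjusted p = 0.628). For H3K4me1 each Parp9 library labelled Tg exceeded the WT library of its number, and the groups overlapped. Parp14 and Dtx3l had H3K27ac differences of 0.15 and 0.03, with overlapping groups.

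The effectors that act on viral RNA are the Ifit genes, which bind RNA with foreign ends, the Oas genes, whose products switch on RNase L, the Oasl genes, Eif2ak2, which encodes the kinase PKR, and the nuclease gene Isg20. For H3K27ac 7 of 9 had estimates above 0 and 2 below, with a median of 0.14, and 0 of 9 passed. The lowest of all members was Ifit1, with 1018 and 2042 bp in Tg libraries and 4224 and 2922 bp in WT libraries. Its difference was -0.79 ± 0.21, with a 95% interval of -1.31 to -0.26, an unadjusted p of 0.0112 and an adjusted p of 0.231 in limma. Both Tg libraries of Ifit1 were below both WT libraries. Its neighbours on chromosome 19 were not alike: Ifit3 had 479 and 1011 bp in Tg libraries and 933 and 290 bp in WT libraries (0.44 ± 0.27, adjusted p = 0.569), and its groups overlapped. The Ifit3 difference was 0.08 without WT 2 and 0.79 without WT 1. Ifit2, Oasl1, Oasl2, Oas2, Oas3 and Isg20 also overlapped between the groups for H3K27ac, with differences of 0.05 (Oasl2) to 0.23 (Isg20).

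The Ifit1 difference lay away from its promoter. Both genotypes had a block of H3K27ac upstream, over the neighbouring genes Ifit1bl1 and Ifit1bl2. In WT libraries this block ran unbroken for 2118 and 1991 bp, beginning at -8.17 kb (WT 1) and -8.18 kb (WT 2) from the Ifit1 start. In Tg libraries it was split into pieces of 537 and 481 bp (Tg 1) and of 423 and 730 bp (Tg 2). The gap between the Tg 2 pieces ran only from -7.26 to -7.18 kb. Shorter H3K27ac peaks in Tg were not particular to this locus. Over all marked promoters the median H3K27ac width was 1192 and 1450 bp in Tg libraries and 1680 and 1568 bp in WT libraries. The WT libraries had a further region at chr19:34631090-34632248, 8641 bp from the gene, with peaks of 1159 and 542 bp and none in Tg libraries. Over the promoter itself the H3K27ac peak was absent in Tg 1 and 889 bp long in Tg 2, against 835 and 389 bp in WT libraries, and with windows of 2 kb the difference shrank to -0.17. H3K4me1 and H3K4me3 peaks were present over the upstream block in all 8 libraries of those marks. Ifit1 thus had 3852 and 5859 bp of H3K4me1 in Tg libraries and 2795 and 6472 bp in WT libraries, which overlap.

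Eif2ak2 had the largest H3K4me1 difference of the members and one of the lowest for H3K27ac. Its H3K27ac covered 1526 and 1492 bp in Tg libraries and 3088 and 2163 bp in WT libraries (-0.40 ± 0.17, adjusted p = 0.426), with both Tg libraries below both WT libraries. Its H3K4me1 covered 1598 and 4801 bp in Tg libraries and 1410 and 1119 bp in WT libraries (1.04 ± 0.43, 95% interval -0.05 to 2.13, adjusted p = 0.637), with both Tg libraries above. Within replicate 1 the H3K4me1 difference was 0.19, and with 1 library left out it ran from 0.47 (without WT 2) to 1.57 (without WT 1). H3K4me3 covered 1929 and 1775 bp in libraries labelled Tg and 2462 and 1814 bp in those labelled WT (-0.13 ± 0.11, adjusted p = 0.919).

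These marks differed at the same place upstream of Eif2ak2. The WT libraries had H3K27ac peaks of 1044 and 783 bp at chr17:78890597-78891640, 8025 bp from the gene, and the Tg libraries had none. The Tg libraries had H3K4me1 peaks of 782 and 1015 bp at chr17:78891220-78892234, 8648 bp from the gene, and the WT libraries had none. These regions overlap each other and lie over Sult6b1 and the gene model Gm26637, so they may belong to those genes. WT 1 also had a H3K4me3 peak of 523 bp there. Within 2 kb of the gene ends the H3K27ac difference of Eif2ak2 was 0.05, of the opposite sign, and the H3K4me1 difference was 0.23.

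**Figure D4:**
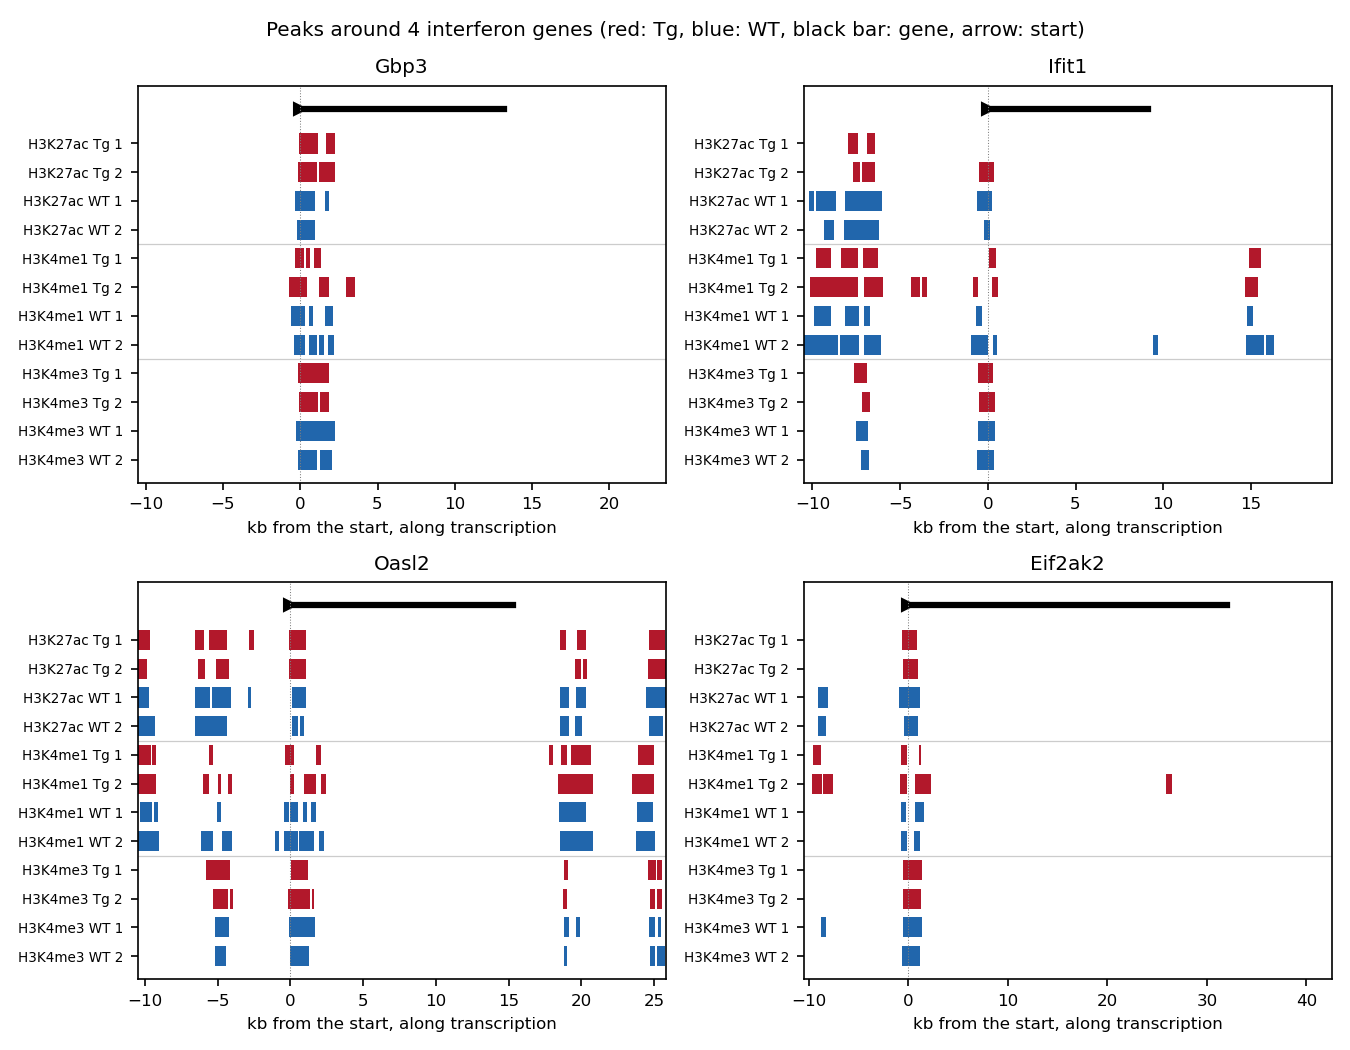
Each bar is a peak, drawn by its distance in kb from the gene start along transcription, in the 12 libraries (rows; Tg in red, WT in blue) around Gbp3, Ifit1, Oasl2 and Eif2ak2, whose body is the black bar. H3K27ac inside Gbp3 reaches farther in Tg libraries, the block upstream of Ifit1 is broken up in Tg libraries, the Oasl2 start is reached by H3K27ac in Tg libraries only, and the region upstream of Eif2ak2 has H3K27ac in WT libraries and H3K4me1 in Tg libraries.

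Such regions, held by both libraries of a genotype and by neither of the other, were counted near the members and near all genes. For H3K27ac, 0 members had a Tg-only region (2.35% of all genes). A WT-only region lay near 2 members (5.56%, against 4.72% of all genes), namely Ifit1 and Eif2ak2. For H3K4me1, 1 member (2.78%) had a Tg-only region (5.97% of all genes), namely Eif2ak2. WT-only H3K4me1 regions lay near 3 members (8.33%, against 10.7% of all genes). The WT-only H3K4me1 regions were 2 inside Oas3, at chr5:120768881-120769383 and chr5:120769662-120770158, one 78 bp beyond Trim25 at chr11:89020372-89020942, and one inside Cmpk2 at chr12:26471902-26472450. Each was 497 to 571 bp wide. For H3K4me3, 0 members had a region of either kind (1.93% of all genes Tg-only, 3.21% WT-only). With 1 library left out a region needs fewer libraries and the counts rise, up to 16 WT-only H3K27ac regions without WT 2, 33 WT-only H3K4me1 regions without WT 1 and 29 Tg-only H3K4me1 regions without WT 2.

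Among the effectors that act on nucleotides or have other roles, 4 of 5 tested had H3K27ac estimates above 0 and none passed. Ifi35, which encodes an interferon-induced leucine zipper protein, had 5551 and 6558 bp in Tg libraries and 5659 and 4359 bp in WT libraries. Its difference was 0.56 ± 0.14, with a 95% interval of 0.21 to 0.92, an unadjusted p of 0.00901 and an adjusted p of 0.213 in limma, while the covered lengths overlapped. The difference came from the far side of its window. There, over Vat1, Tg libraries had unbroken peaks of 3324 and 3302 bp, and WT libraries had shorter pieces, the longest of 1718 and 1250 bp. Over the Ifi35 promoter the peaks measured 694 and 1348 bp in Tg libraries and 1424 and 1277 bp in WT libraries. With windows of 2 kb the estimate was -0.10, of the opposite sign.

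Rsad2, which encodes viperin, and Cmpk2, a mitochondrial nucleotide kinase, stand next to each other, and viperin works on the nucleotide that Cmpk2 helps to supply. Cmpk2 had 1855 and 2619 bp of H3K27ac in Tg libraries and 4715 and 2990 bp in WT libraries (-0.41 ± 0.18, adjusted p = 0.439), with both Tg libraries below both WT libraries, and without WT 1 the difference was -0.22. Its H3K4me1 covered 3275 and 6670 bp in Tg libraries and 5835 and 6343 bp in WT libraries (-0.26 ± 0.28, adjusted p = 0.846), which overlap. Rsad2 had 1999 and 1745 bp of H3K4me3 in libraries labelled Tg and 1389 and 1741 bp in those labelled WT (0.24 ± 0.16, adjusted p = 0.916), where Tg 2 was just above WT 2. That difference was 0.05 without WT 1, 0.15 without Tg 1 and 0.45 without WT 2. Xaf1, a gene linked to apoptosis, had 625 and 1170 bp of H3K4me1 in Tg libraries and 904 and 2174 bp in WT libraries (-0.45 ± 0.22, adjusted p = 0.687). Each Tg library of Xaf1 was below the WT library of its number. Trim30a, which restrains signalling by Toll-like receptors, had 1366 and 1939 bp of H3K27ac in Tg libraries and 1564 and 1419 bp in WT libraries (0.31 ± 0.14, adjusted p = 0.446), which overlap.

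The membrane effectors are the Ifitm genes, Bst2, which encodes tetherin, a tether of budding virus, and Gbp2 and Gbp3, guanylate-binding proteins that attack the vacuoles of pathogens inside cells. Gbp3 had the highest H3K27ac estimate of all members and was the single member with both Tg libraries above both WT libraries. It had 1786 and 2258 bp in Tg libraries and 1546 and 1158 bp in WT libraries. Its difference was 0.66 ± 0.14, with a 95% interval of 0.32 to 1.01, an unadjusted p of 0.00372 and an adjusted p of 0.157 in limma, so it missed the threshold. It lay at percentile 97.5 of all genes tested, and without each library in turn it stayed between 0.60 and 0.72.

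The Gbp3 promoter peak was alike in all libraries, with 1248 and 1207 bp in Tg libraries and 1296 and 1158 bp in WT libraries. The added length was a second peak inside the gene, from 1.69 to 2.23 kb past the start in Tg 1 and from 1.20 to 2.25 kb in Tg 2, against a peak of 250 bp in WT 1 and none in WT 2. Without normalization the difference was 0.45 and with windows of 2 kb it was 0.48. H3K4me3 pointed the other way by its labels, with 1988 and 1825 bp in libraries labelled Tg and 2532 and 2011 bp in those labelled WT (-0.18 ± 0.09, adjusted p = 0.916), and would point the same way by the peak names. H3K4me1 covered 1356 and 2494 bp in Tg libraries and 1650 and 2035 bp in WT libraries, which overlap. Its relative Gbp2 had 1194 and 1619 bp of H3K27ac in Tg libraries and 1737 and 1642 bp in WT libraries, a difference of -0.0038 ± 0.13 (adjusted p = 0.994). Bst2, with its overlapping ISRE pair, had 1450 and 1672 bp in Tg libraries and 2082 and 1675 bp in WT libraries (-0.0009 ± 0.14, adjusted p = 0.999). Ifitm2 and Ifitm3 had H3K27ac differences of 0.16 and -0.10, although both Tg libraries were below both WT libraries in covered length in each.

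For H3K4me3 the member with an unadjusted p under 0.05 was Ifit3. It had 517 and 701 bp in libraries labelled Tg and 605 and 455 bp in those labelled WT, which overlap. Its difference was 0.30 ± 0.07 (unadjusted p = 0.00891, adjusted p = 0.916 in limma), and without normalization it was 0.11. Ifitm1 had 329 and 1131 bp in libraries labelled Tg and 3190 and 0 bp in those labelled WT (-0.12 ± 0.95, 95% interval -2.69 to 2.44, adjusted p = 0.992). The WT libraries of Ifitm1 lay on either side of the Tg libraries, and the data place no useful limit on its difference.

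Coverage near markers of other cell types was measured in the same way, and its direction depended on the mark. The summed H3K27ac length near 10 mature granulocyte markers was 60.3 and 52.7 kb in Tg libraries and 112 and 115 kb in WT libraries, with all 10 marked in every library and Mmp8, a granule collagenase, called lower in Tg. For H3K4me1 the same 10 summed to 73.6 and 129 kb in Tg libraries and 58.3 and 126 kb in WT libraries. For H3K4me3 they summed to 84.3 and 53.5 kb in libraries labelled Tg and 50.9 and 50.1 kb in those labelled WT, and no marker was called in either of these marks. The 6 monocyte and macrophage markers had summed H3K27ac lengths of 15.6 and 19.6 kb in Tg libraries and 29.9 and 28.8 kb in WT libraries, with Ccr2 at 0 in all 4. These sums are not normalized, and the H3K27ac lists as a whole covered less in Tg libraries. After normalization the median H3K27ac difference was -0.15 over the 5 monocyte and macrophage markers tested, with 0 called. It was -0.71 over the 10 granulocyte markers. Plasmacytoid dendritic cells are strong producers of interferon, and their 6 markers had H3K27ac sums of 0.986 and 1.97 kb in Tg libraries and 1.29 and 1.19 kb in WT libraries, with Siglech, Klk1 and Cox6a2 at 0 in all 4. The 8 progenitor markers had H3K27ac sums of 17.5 and 20.9 kb in Tg libraries and 24.7 and 21.1 kb in WT libraries. For H3K4me1 the 5 erythroid markers summed to 5.70 and 13.8 kb in Tg libraries and 12.1 and 21.6 kb in WT libraries, with a median difference of -0.98, 3 of 5 at an unadjusted p under 0.05 and 0 called. For H3K4me3 the erythroid median was 0.57 by label, with 0 called. Both libraries labelled Tg lay above both labelled WT for 3 of 5 erythroid markers and below for 0. By the peak names these H3K4me3 differences would change sign and share the direction of H3K4me1. For H3K27ac the median was -0.17 over the 3 erythroid markers tested, with covered length higher without overlap in Tg for 1 and lower for 0. Of the members tested for H3K27ac, 18 had estimates above 0 and 16 below. The part of any marker sum in the members' values was not tested. In cells from a mixed sort, fewer cells with a mark and less of the mark per cell cannot be told apart.

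Interferon genes outside the list also held none that passed the threshold. Of 56 further genes 55 were matched, and 52 were tested for H3K27ac, 54 for H3K4me1 and 55 for H3K4me3, with 0 called in any mark. The unadjusted p was under 0.05 for 11 of 52 in H3K27ac, where this held for 12.6% of all genes and 3 of 34 members. It was under 0.05 for 2 of 54 in H3K4me1 (7.97% of all genes) and 4 of 55 in H3K4me3 (4.82% of all genes). The median differences were 0.06, -0.01 and 0.01 in the same order of marks. For H3K27ac the median was -0.35 over the 7 receptors and kinases and 0.17 over the 24 effectors tested. Jak1 had 1086 and 1533 bp in Tg libraries and 2686 and 2164 bp in WT libraries (-0.48 ± 0.13, adjusted p = 0.246), with both Tg libraries below both WT libraries. Irf5, a factor of inflammatory genes in myeloid cells, had 684 and 569 bp in Tg libraries and 1612 and 2154 bp in WT libraries (-0.88 ± 0.26, adjusted p = 0.261). On the other side, Oas1a, which lies in the same gene cluster as Oas2 and Oas3, had 1896 and 1521 bp in Tg libraries and 1270 and 361 bp in WT libraries (0.996 ± 0.31, adjusted p = 0.294). Mndal, of the family of nuclear DNA sensors, had 3294 and 4304 bp in Tg libraries and 2794 and 2565 bp in WT libraries (0.69 ± 0.14, adjusted p = 0.156). Jak1, Irf5, Oas1a and Mndal were picked for the text after their values were seen.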

How the data were processed

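H3K27ac, H3K4me1 and H3K4me3 were measured in cKit+ bone marrow cells of Phf6R274X Tg and WT mice, with 2 libraries per genotype and mark. Per the labels' protocols, single-end reads of 75 bp were made. The submitters' processing notes name MACS2, Bowtie2, Trim Galore, deepTools, FastQC and SAMtools and build mm10, and their versions, settings and any control library are not given in the sources used here. The authors deposited 1 peak list per library, called per library. Each deposited peak has a score, a fold enrichment ratio, and a −log10 p-value and −log10 q-value. These depend on depth and served only to rank or filter peaks within a list. The lists hold no read counts, so depth is unknown and no interval that needs it was computed.

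Genes, promoters and their sequences came from RefSeq tables of GRCm38.p6. Covered length within 10 kb of either gene end was computed in Python 3.11.15 and fitted per mark in limma 3.58.1 (R 4.3.3: lmFit, eBayes) on quantile normalized log2(bp + 500) for genes with a peak in at least 2 of 4 libraries, without a replicate block. Adjusted p-values are limma's, Benjamini-Hochberg over all genes tested. Exact permutation of 2 against 2 libraries cannot go below p = 0.333 and was not used. Regions are merged peaks, and 1 bp of a peak puts a region in a library. The fit was also run on simulated data as a self-test, which is not used here to judge what differences could be detected. Named genes are Irf1, Irf7, Irf9 and Stat2, and per mark the 3 members with the highest and the 3 with the lowest change. Oasl2 and other members given as levels fall outside that rule. The members, the lists and the tests were chosen with earlier results of these data known. Alternatives covered normalization, the bp added, the filter, a −log10 q of at least 5, windows, the overlap, a replicate block and each library left out.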

Additional observations from a re-analysis of the deposited data

How the results depend on the processing

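In no alternative was any member called, in any mark. Of 377 values of the 29 named differences under 13 alternatives per mark, 352 kept direction and side of the threshold and 25 changed sign, none of them called. The number of all genes called for H3K27ac, 36, was 3 with equal total lengths, 1 without normalization, 0 with 100 bp added, 114 with 2000 bp added, 1 with a peak in at least 1 library, 0 with a −log10 q of at least 5, 8 with 2 kb windows, and between 0 (without either WT library) and 116 (without Tg 2) with 1 library left out. Without normalization the H3K27ac median was -0.21 for the members and -0.20 for all genes. The H3K4me1 median of the members, 0.07, was 0.0736 with equal total lengths, 0.0148 without normalization, 0.0924 with 100 bp and 0.0459 with 2000 bp added, 0.0781 with a peak in at least 1 library, 0.163 with a −log10 q of at least 5, -0.0241 with 2 kb windows, 0.0534 over whole gene bodies, and between 0.0463 and 0.0954 with 1 library left out.

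Signs turned for H3K27ac at Irf9 (0.0009 with equal total lengths), Stat2 (0.034 with a −log10 q of at least 5), Eif2ak2 (0.053 with 2 kb windows) and Ifi35 (-0.10 with 2 kb windows). They turned for H3K4me1 at Stat2 (-0.29 with 2 kb windows). They turned for H3K4me3 at Ifitm1 (0.41 with 100 bp added), Irf7 (-0.0123 with a −log10 q of at least 5, -0.0387 with 2 kb windows) and Stat2 (-0.0316 with a −log10 q of at least 5). With 1 library left out, H3K27ac ranged from -0.321 to 0.0132 at Irf1, -0.398 to 0.137 at Irf7, -0.0944 to 0.0434 at Irf9 and -0.137 to 0.0846 at Stat2. For H3K4me1 it ranged from -0.427 to 0.0971 at Irf7, -0.578 to 0.0458 at Cmpk2 and -0.0303 to 1.05 at Ddx58, and for H3K4me3 from -0.124 to 0.0066 at Irf1, -0.026 to 0.0542 at Irf7, -0.184 to 0.211 at Irf9, -0.154 to 0.253 at Stat2 and -1.49 to 1.29 at Ifitm1. Some named differences kept their sign but moved by over 1.5 times with 1 library left out. For H3K27ac these ranged from -0.58 to -0.22 at Cmpk2, -0.55 to -0.26 at Eif2ak2 and 0.08 to 0.79 at Ifit3. For H3K4me1 they ranged from 0.02 to 0.37 at Stat2, -0.62 to -0.27 at Xaf1 and 0.47 to 1.57 at Eif2ak2, and for H3K4me3 from -0.25 to -0.0985 at Gbp3, -0.25 to -0.0082 at Eif2ak2, 0.11 to 0.28 at Parp9 and 0.05 to 0.45 at Rsad2. Other alternatives also moved named differences, as at Irf9 (-1.42) and Xaf1 (-1.35) for H3K4me1 with a −log10 q of at least 5. With 2 kb windows the H3K27ac difference at Ifit1 was -0.17 and the H3K4me1 difference at Eif2ak2 was 0.23. Without normalization the H3K27ac difference at Cmpk2 was -0.65. The causes were not tested.

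Counts of regions held by a single genotype also moved. With a −log10 q of at least 5 there were 3 Tg-only and 5 WT-only H3K27ac regions and 4 Tg-only H3K4me1 regions. With 50% of a region required in a library there were 1 WT-only H3K27ac region and 2 WT-only H3K4me1 regions. With 2 kb windows there were 0 WT-only H3K27ac, 0 Tg-only H3K4me1 and 1 WT-only H3K4me1 regions. With 1 library left out, the counts ran from 0 to 4 (Tg-only) and 4 to 16 (WT-only) for H3K27ac, from 3 to 29 and 5 to 33 for H3K4me1, and from 1 to 8 and 0 to 11 for H3K4me3.

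A replicate block in the fit left 6 genes in all called for H3K27ac and 0 for H3K4me1 and H3K4me3, and 0 members in any mark. The labels give replicate numbers and do not state a pairing, although same-numbered libraries of both genotypes share an ending in their peak names. Correlations of same-numbered deviations were -0.20 (H3K27ac), 0.21 (H3K4me1) and -0.08 (H3K4me3) over 2 pairs. These used quantile normalized values, from which a shift of a whole list is removed, so they cannot decide whether libraries were paired. With the numbers crossed, an alternative chosen after seeing the data, 10 genes and 0 members were called for H3K27ac.

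Peak lists limit what can be said. Covered length does not measure how strong a mark is, a peak that ends short of a gene changes a value without a change in signal, and with 2 libraries per group the 95% interval reached a median of 0.40 (H3K27ac), 0.55 (H3K4me1) and 0.24 (H3K4me3) log2 units to either side of a member's difference.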

Other observations

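Antigen presentation is another arm of the interferon response, and its genes lie outside the 36 members. None of the 10 tested passed the threshold in any mark, and the H3K27ac median was 0.01. Tap2, a subunit of the peptide transporter, had 5203 and 4991 bp of H3K27ac in Tg libraries and 4317 and 4447 bp in WT libraries, a difference of 0.48 ± 0.16 (adjusted p = 0.323). Psmb8, an immunoproteasome subunit, had 5416 and 5416 bp in Tg libraries and 4745 and 4885 bp in WT libraries (0.45 ± 0.15, adjusted p = 0.336). In these 2 genes, which lie near each other, both Tg libraries were above both WT libraries, as in 5.51% of all genes. In 6 of the 10, namely Psmb9, Psmb10, Tapbp, B2m, Nlrc5 and H2-D1, both Tg libraries were below both WT libraries, as in 45.2% of all genes. Psmb9, another immunoproteasome subunit, had 2056 and 2915 bp in Tg libraries and 3920 and 3923 bp in WT libraries (-0.32 ± 0.15, adjusted p = 0.479). Nlrc5, an activator of class I genes, had 6278 and 6028 bp in Tg libraries and 11617 and 8376 bp in WT libraries (-0.35 ± 0.17, adjusted p = 0.488). Irgm1 and Igtp, GTPases that act on pathogen vacuoles, had differences of 0.51 ± 0.16 (adjusted p = 0.307) and 0.46 ± 0.13 (adjusted p = 0.254). These genes were picked after their values were seen. Ifi204, a sensor of foreign DNA and picked in the same way, had 316 and 502 bp of H3K27ac in Tg libraries. It is listed at 0 in both WT libraries. Its difference was 0.80 ± 0.15 (adjusted p = 0.144 in limma), so it was not called. It entered the fit through its Tg libraries alone, and its lengths are small beside the 500 bp added.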
